A study of Mus musculus with 20 samples.

Results

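Retina of mice heterozygous for CrxRip, a dominant allele of the photoreceptor transcription factor gene Crx, was followed from postnatal day 2 (P2) to postnatal day 21 (P21). The genes described are those whose transcript identifier occurs in both of the deposited tables, the P2 table with 566 genes and the P21 table with 1497 genes. These are 198 of the 1865 genes in either table, taken without a further choice by level. Each table already holds only genes selected for a level and a difference between some genotypes, so the 198 are a selected set. The samples are 4 of 20, namely 2 CrxRip/+ samples at P21 and 2 at P2, and they are set beside 2 wild-type (WT) samples at P21 and 2 at P2. All 4 groups carry the strain label C57BL/6J and no treatment, and CrxRip/+ differs from WT in the labels by the Crx allele alone. Each sample pooled 2 frozen whole retinas, so n = 2 samples per group, the labels do not say whether they came from separate animals, and p values measure the spread between such pools. CrxRip/Rip, Crx-/- and Nrl-/- retinas of the same ages completed the 5 genotypes of the study. Whole retina holds every retinal cell type, and in such bulk samples fewer cells of a type and less RNA per cell cannot be told apart.

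Photoreceptors are the most numerous cells of the mouse retina, and most of them are rods, which serve dim light, while the remainder are cones, which serve daylight and colour. CRX and the related OTX2 are homeodomain factors that switch on genes of both cell types, NRL is the factor that commits a precursor to the rod fate, and NR2E3 acts downstream of NRL, raising rod genes and holding cone genes down. In the first postnatal days rods are still being born and outer segments, the light-sensing organelles, are absent. By the third postnatal week outer segments and synapses have formed, so phototransduction and synaptic transcripts are normally abundant.

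Values are FPKM, fragments scaled by transcript length and library size, which allows levels to be compared between genes, and the depth of each sample is unknown. Each age has its own table with its own scale, which holds only genes that differed between some genotypes, so no test was made across ages and only large changes were read. A change is log2 of the ratio of mean FPKM + 1 at P21 to mean FPKM + 1 at P2, and a gene passed the 4-fold limit at a change of at least 2 or at most -2 with no overlap between the ages. CrxRip/+ was tested against WT within each age with limma on log2(FPKM + 1). The course between ages was tested only as the difference of those 2 differences, in which a factor common to a whole table cancels. The summed FPKM of the table was 28022.9 and 27469.9 at P21 and 5181.4 and 5298.0 at P2 in the CrxRip/+ samples, against 55335.3 and 53395.9 at P21 and 5449.5 and 5777.3 at P2 in the WT samples. The CrxRip/+ samples of an age thus lay close to each other. Crx itself is not among the shared genes, so the genotype labels were not checked on it here.

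Of the 198 genes, 57 (28.8%) were at least 4-fold higher at P21 than at P2 in CrxRip/+ retina and 8 (4.04%) were at least 4-fold lower. A further 92 lay within 2-fold and 41 lay between these limits. WT retina had 53 genes above the limit, 6 below it, 90 within 2-fold and 49 in between. The median change was 0.71 in CrxRip/+ and 0.41 in WT. Both P21 samples exceeded both P2 samples for 118 genes in CrxRip/+ retina, and both lay below for 53. At both ages the CrxRip/+ mean was under 2 FPKM for 21 genes, for which the rounding of the deposited values to 1 decimal limits any change. The genes just inside the upper limit were Igfbp7 at 2.01, Parvb at 2.02 and Hbb-bs at 2.03, and those just outside it were Sptb at 1.94, Stx3 at 1.92 and Podxl at 1.84.

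**Figure D1:**
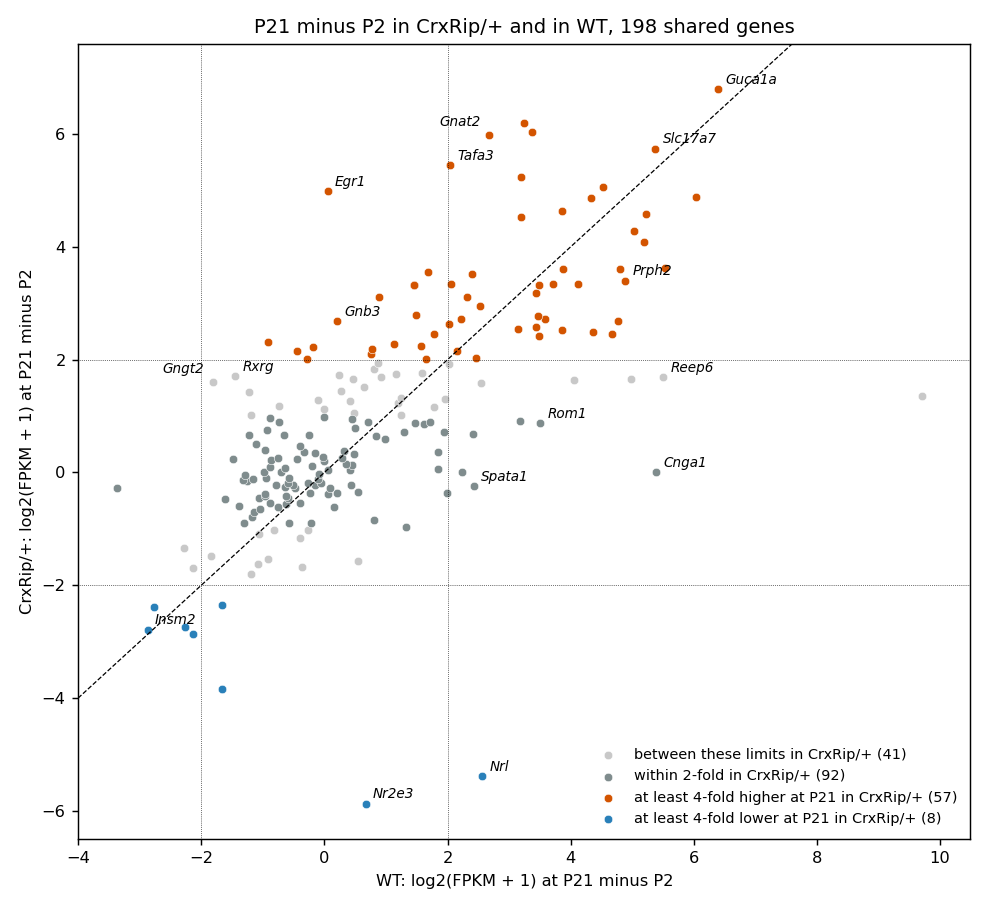
Change from P2 to P21 of the 198 shared genes, as log2 of the ratio of mean FPKM + 1 at P21 to that at P2, in CrxRip/+ (vertical axis) against WT (horizontal axis). Each point is a gene coloured by its CrxRip/+ class, the dashed line marks equal change and the dotted lines mark 4-fold. Nrl and Nr2e3 lie far below the dashed line at -5.39 and -5.88 in CrxRip/+, Cnga1 lies at 0.00 in CrxRip/+ and 5.39 in WT, and Egr1 lies far above the line with 4.99 in CrxRip/+ and 0.05 in WT.

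The same genes mostly passed the upper limit in both genotypes. Of the 57 genes past it in CrxRip/+, 40 also passed it in WT, 8 were between the limits in WT and 9 lay within 2-fold in WT. Among the 53 genes past it in WT, 7 stayed under a change of 1 in CrxRip/+ and are called stalled here, and 6 had a change from 1 to under 2 and are called lagging. The stalled genes were Nrl, Spata1, Cnga1, Krt18, 1810009A15Rik, Rom1 and Pdc, and the lagging genes included Klhl18, Rp1, Pde6b, Reep6 and Stx3. Of these 13 genes, the rod and photoreceptor lists used below hold 8. Those lists are also well filled among the shared genes as a whole, with 10 rod, 11 cone and 10 phototransduction genes. They further hold 6 outer segment and matrix genes, 6 transcription factors and 3 synapse genes, with some overlap between lists. Whether list genes were more frequent among the 13 than among the shared genes was not tested. The only gene past the lower limit in WT that stayed above -1 in CrxRip/+ was Eno1b, an enolase gene whose replicates disagreed, with 19.4 and 0.2 FPKM at P21 and 0.3 and 23.7 FPKM at P2 in CrxRip/+ retina.

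In the test of the difference between ages, limma called 74 of the 198 genes as higher (37.4%), meaning that CrxRip/+ gained on WT between P2 and P21. It called 49 as lower (24.7%), meaning that CrxRip/+ lost ground. The median of this difference over the 198 genes was 0.29, and 0.10 after each sample was rescaled by the median of its ratios, and the median shift of single genes under that rescaling was -0.22. The rescaling leaves the directions given below for rod and cone genes in place. Within the P2 table CrxRip/+ was called higher than WT for 3.71% of all genes and lower for 12.7%, and among the 198 shared genes it was higher for 9 (4.55%) and lower for 61 (30.8%). Within the P21 table CrxRip/+ was called higher for 39.5% of all genes and lower for 35%, and among the shared genes it was higher for 72 (36.4%) and lower for 64 (32.3%). The shared genes were thus close to the whole table at P21 and held a larger share of genes lower than WT at P2. At P2 the count of lower genes over the whole table, 72, was 39 without WT replicate 2. Both tables list genes already selected for a difference between some genotypes, and these shares describe such genes alone.

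Among the listed photoreceptor transcription factors, Nrl and Nr2e3 parted most sharply from WT between the ages. Of the 6 listed factors in both tables, 2 were at least 4-fold lower at P21 in CrxRip/+, 1 was at least 4-fold higher, 2 lay within 2-fold and 1 in between, and the median change was -0.36 in CrxRip/+ against 0.74 in WT. Nrl had 0.9 and 0.4 FPKM at P21, against 63.0 and 73.1 FPKM at P2, in CrxRip/+ retina. In WT retina Nrl had 466.1 and 427.6 FPKM at P21, against 69.4 and 81.0 FPKM at P2. At P2 the samples of both genotypes thus overlapped, with a CrxRip/+ minus WT difference of -0.14 (limma, adjusted p = 0.621), whereas at P21 the CrxRip/+ samples were close to 0 and the WT samples had climbed. The difference of the differences was -7.96 ± 0.20 (SE, log2 scale, adjusted p = 2.29e-12). Nr2e3 had 1.7 and 1.0 FPKM at P21, against 121.1 and 153.3 FPKM at P2, in CrxRip/+ retina. WT retina held Nr2e3 at 223.7 and 198.8 FPKM at P21, against 120.3 and 143.8 FPKM at P2. Both rod factors were therefore at the WT level at P2 and nearly gone from CrxRip/+ retina at P21, and the difference of the differences for Nr2e3 was -6.56 ± 0.23 (SE, adjusted p = 8.37e-11). Nrl lies on chr14:55518978-55524981 and Nr2e3 on chr9:59942771-59960834 of GRCm38.p6, in the RefSeq gene table.

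Samd7, a polycomb-associated repressor that keeps non-rod genes silent in rods, had 1.7 and 2.0 FPKM at P21, against 4.4 and 3.8 FPKM at P2, in CrxRip/+ retina. It had 41.6 and 43.5 FPKM at P21, against 20.7 and 27.0 FPKM at P2, in WT retina. Unlike Nrl and Nr2e3, Samd7 was already below WT at P2, by -2.28 on the log2 scale (adjusted p = 8.12e-05), and the gap widened by -1.66 ± 0.21 (SE, adjusted p = 1.58e-05). Ankrd33, a photoreceptor repressor of CRX-dependent transcription, went the other way, with 104.9 and 88.0 FPKM at P21 against 2.8 and 3.0 FPKM at P2 in CrxRip/+ retina. In WT retina Ankrd33 had 78.2 and 71.2 FPKM at P21, against 4.3 and 4.1 FPKM at P2. It reached the WT level, with a P21 difference of 0.36 (adjusted p = 0.0677). Rxrg, a retinoid receptor that acts with thyroid hormone receptor in cone opsin patterning, had 14.4 and 19.3 FPKM at P21, against 4.2 and 4.7 FPKM at P2, in CrxRip/+ retina. In WT retina Rxrg had 2.5 and 2.6 FPKM at P21, against 8.5 and 8.9 FPKM at P2, so the genotypes crossed, with a difference of the differences of 3.15 ± 0.21 (SE, adjusted p = 5.73e-08). Sall3, a regulator needed by S cones and horizontal cells, stayed between 0.7 and 1.0 FPKM in all 4 CrxRip/+ samples.

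**Figure D2:**
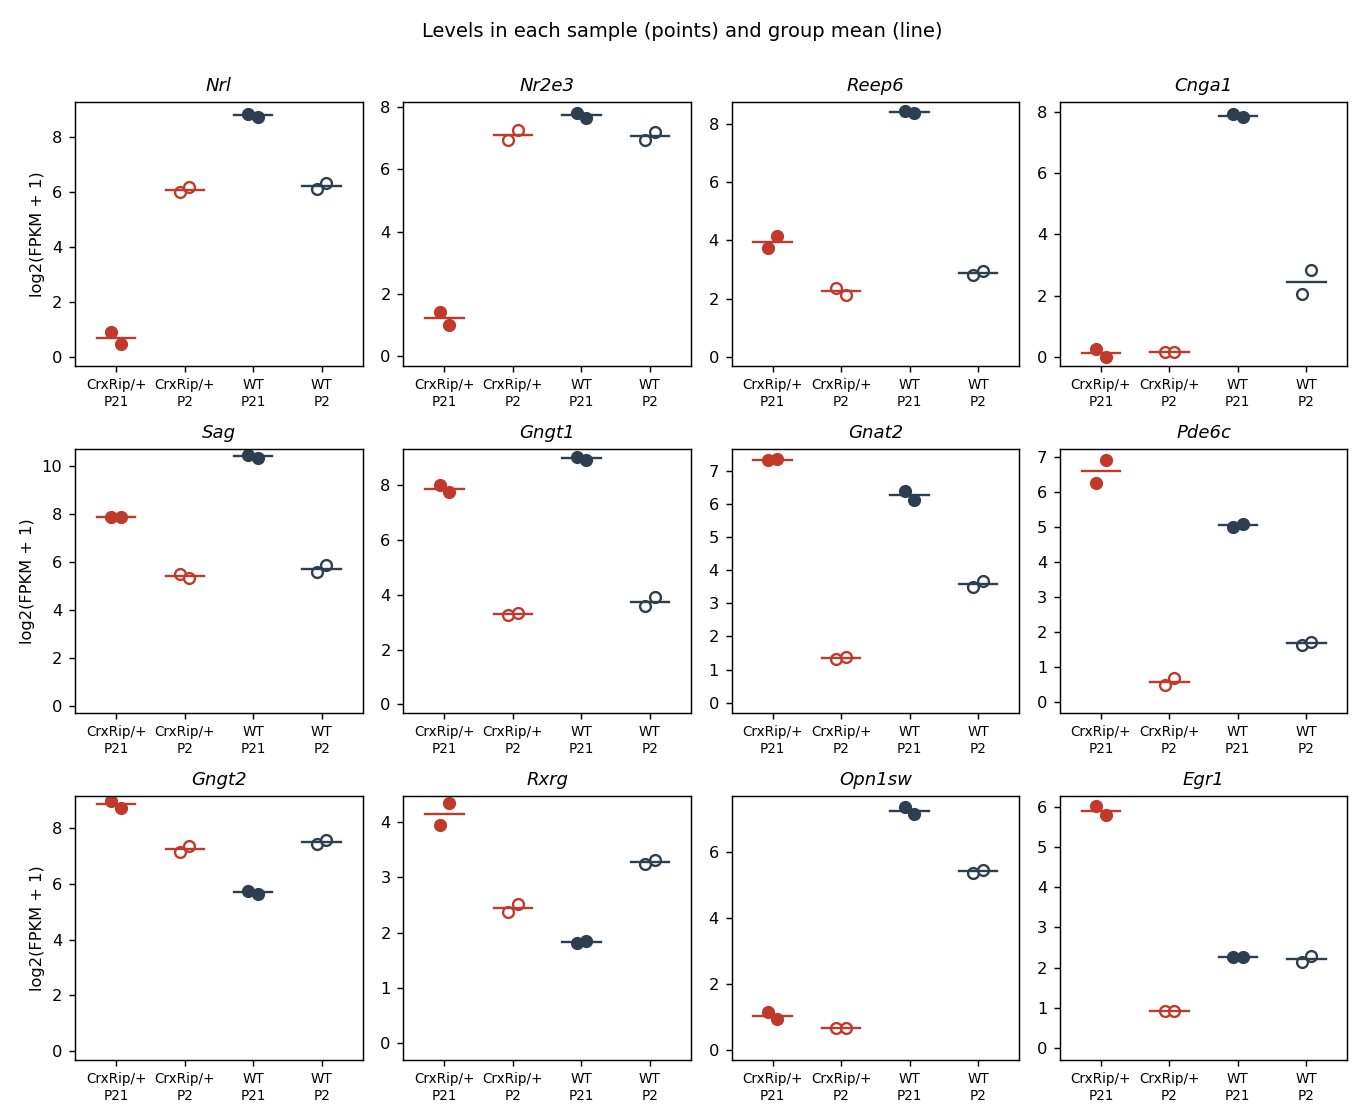
Levels of 12 genes as log2(FPKM + 1), with a point per sample and a line at the group mean, for CrxRip/+ at P21 and P2 and WT at P21 and P2. The vertical scale differs between panels. Nrl and Nr2e3 are high in every group except CrxRip/+ at P21, Cnga1 is near 0 in all 4 CrxRip/+ samples, and Gngt2, Rxrg, Gnat2, Pde6c and Egr1 are highest in CrxRip/+ at P21.

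Genes on the rod list divided into those that rose in part and those that did not. All 10 listed rod genes, Nrl and Nr2e3 included, were lower than WT at P21 and were called lower in the difference between ages. In CrxRip/+ retina 4 of the 10 were at least 4-fold higher at P21 than at P2, against 9 of 10 in WT, and the median change was 1.67 against 5.09. Cnga1, the rod cyclic nucleotide-gated channel, had 0.2 and 0.0 FPKM at P21, against 0.1 and 0.1 FPKM at P2, in CrxRip/+ retina. WT retina had 244.5 and 228.2 FPKM of Cnga1 at P21, against 3.1 and 6.2 FPKM at P2. Cnga1 was therefore at the rounding limit in CrxRip/+ at both ages.

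Reep6, an endoplasmic reticulum protein with a rod-specific form, had 12.3 and 16.6 FPKM at P21, against 4.2 and 3.4 FPKM at P2, in CrxRip/+ retina. In WT retina Reep6 had 343.2 and 333.1 FPKM at P21, against 6.1 and 6.8 FPKM at P2. Pde6b, a catalytic subunit of the rod phosphodiesterase, behaved likewise, with 24.9 and 35.2 FPKM at P21 against 7.9 and 9.8 FPKM at P2 in CrxRip/+ retina. Both genes were higher at P21 in every CrxRip/+ sample but stayed under the 4-fold limit, with changes of 1.69 for Reep6 and 1.66 for Pde6b, against 5.51 and 4.99 in WT.

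The rod genes that passed the limit were Gngt1, Pde6g, Nxnl1 and Sag. These 4 were also present in Nrl-/- retina, which lacks the factor that commits precursors to the rod fate. At P21 that retina had 231.7 and 226.6 FPKM of Gngt1, 553.4 and 478.3 of Pde6g, 21.8 and 20.4 of Nxnl1 and 687.4 and 753.0 of Sag. Pde6b had 15.5 and 15.3 FPKM there, Reep6 9.3 and 7.9, and Cnga1 0.0 and 0.0. Whether rods or other cells held these transcripts in CrxRip/+ retina was not tested. Gngt1, the gamma subunit of rod transducin, had 254.8 and 210.8 FPKM at P21, against 8.5 and 9.0 FPKM at P2, in CrxRip/+ retina. In WT retina Gngt1 had 516.1 and 483.1 FPKM at P21, against 11.0 and 13.9 FPKM at P2. Its change of 4.58 was the closest to WT (5.22) among the rod genes that passed the limit, although its P21 level stayed lower, by -1.10 on the log2 scale (adjusted p = 4.98e-05). The loss against WT between the ages, -0.65 ± 0.25 (SE, adjusted p = 0.0394), was not called under 7 of 14 alternatives, and its adjusted p reached 0.143. Pde6g, the inhibitory phosphodiesterase subunit, had 241.5 and 184.1 FPKM at P21, against 9.8 and 13.4 FPKM at P2, in CrxRip/+ retina, and 1345.4 and 1245.8 FPKM at P21, against 30.3 and 38.8 FPKM at P2, in WT retina. Sag, the rod arrestin, which ends the light response, had 231.2 and 234.7 FPKM at P21, against 43.8 and 39.4 FPKM at P2, in CrxRip/+ retina. The WT samples held Sag at 1394.0 and 1302.6 FPKM at P21, against 46.4 and 56.8 FPKM at P2. Sag began at a level not called different from WT (-0.30, adjusted p = 0.478) and ended 2.53 lower on the log2 scale (adjusted p = 4.31e-07). Nxnl1, which encodes a rod-derived survival factor for cones, changed by 2.49 in CrxRip/+ and 4.36 in WT.

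Cone genes took the opposite course. Of the 11 listed cone genes in both tables, 10 were lower than WT at P2, whereas at P21 6 were higher and 2 lower, and 9 were called higher in the difference between ages against 2 called lower. In CrxRip/+ retina 5 were at least 4-fold higher at P21 than at P2, against 3 in WT, and the median change was 1.71 against 0.20. Gnat2, the alpha subunit of cone transducin, had 157.8 and 162.0 FPKM at P21, against 1.5 and 1.6 FPKM at P2, in CrxRip/+ retina, a ratio of mean FPKM of 103. In WT retina Gnat2 had 83.0 and 68.2 FPKM at P21, against 10.2 and 11.7 FPKM at P2. Both CrxRip/+ samples were thus below both WT samples at P2 and above them at P21, with differences of 1.08 at P21 (adjusted p = 3.95e-05) and -2.23 at P2 (adjusted p = 1.41e-05). Pde6c, the catalytic subunit of the cone phosphodiesterase, had 76.3 and 118.9 FPKM at P21, against 0.4 and 0.6 FPKM at P2, in CrxRip/+ retina. In WT retina Pde6c had 30.9 and 33.3 FPKM at P21, against 2.1 and 2.3 FPKM at P2. Pde6c crossed WT in the same way, and its difference of the differences was 2.64 ± 0.29 (SE, adjusted p = 4.39e-06).

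Pde6h, the cone phosphodiesterase inhibitory subunit, had 37.5 and 149.9 FPKM at P21, against 0.3 and 0.3 FPKM at P2, in CrxRip/+ retina. In WT retina Pde6h had 86.3 and 78.4 FPKM at P21, against 7.0 and 8.6 FPKM at P2. The P21 CrxRip/+ replicates lay on either side of WT, and the difference from WT at P21, -0.13 (adjusted p = 0.823), was 0.86 without CrxRip/+ replicate 1 and -1.11 without replicate 2. Gnb3, the beta subunit of cone transducin that also serves ON bipolar cells, had 256.0 and 257.5 FPKM at P21, against 35.1 and 43.2 FPKM at P2, in CrxRip/+ retina. In WT retina Gnb3 had 122.8 and 119.1 FPKM at P21, against 96.8 and 111.7 FPKM at P2, so Gnb3 passed 4-fold in CrxRip/+ and not in WT. Cngb3, the beta subunit of the cone channel, had 16.7 and 15.2 FPKM at P21, against 2.6 and 3.0 FPKM at P2, in CrxRip/+ retina, and 4.7 and 4.8 FPKM at P21, against 6.7 and 7.0 FPKM at P2, in WT retina.

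Other cone genes gained on WT with changes under 4-fold in both genotypes, which were not read across the tables. Gngt2, the gamma subunit of cone transducin, had 500.8 and 421.3 FPKM at P21, against 138.6 and 164.0 FPKM at P2, in CrxRip/+ retina. In WT retina Gngt2 had 52.6 and 48.8 FPKM at P21, against 171.1 and 190.0 FPKM at P2. Gngt2 was not called different from WT at P2 (-0.26, adjusted p = 0.427) and was 3.16 higher at P21 (adjusted p = 1.52e-06), a difference of the differences of 3.41 ± 0.25 (SE, adjusted p = 1.12e-07). Otop3, which encodes a proton channel of the otopetrin family, changed by 0.23 in CrxRip/+ and -1.48 in WT. Ccdc136, a coiled-coil gene on the cone list, changed by 0.39 in CrxRip/+ and -0.97 in WT. Both were called higher in the difference between ages, at 1.71 for Otop3 and 1.35 for Ccdc136.

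Opn1sw and Cnga3 were the exceptions among the cone genes. Opn1sw, the short-wavelength cone opsin, had 1.2 and 0.9 FPKM at P21, against 0.6 and 0.6 FPKM at P2, in CrxRip/+ retina. In WT retina Opn1sw had 164.5 and 141.0 FPKM at P21, against 40.6 and 43.0 FPKM at P2. It was far below WT at both ages, by -6.23 at P21 (adjusted p = 4.17e-09) and -4.74 at P2 (adjusted p = 5.2e-08). Cnga3, the alpha subunit of the cone channel, had 0.2 and 0.2 FPKM at P21, against 0.5 and 0.6 FPKM at P2, in CrxRip/+ retina, and 3.6 and 3.7 FPKM at P21, against 3.0 and 3.1 FPKM at P2, in WT retina. Within the cone channel, the alpha subunit gene thus stayed under 1 FPKM in every CrxRip/+ sample while the beta subunit gene was above WT at P21.

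**Figure D3:**
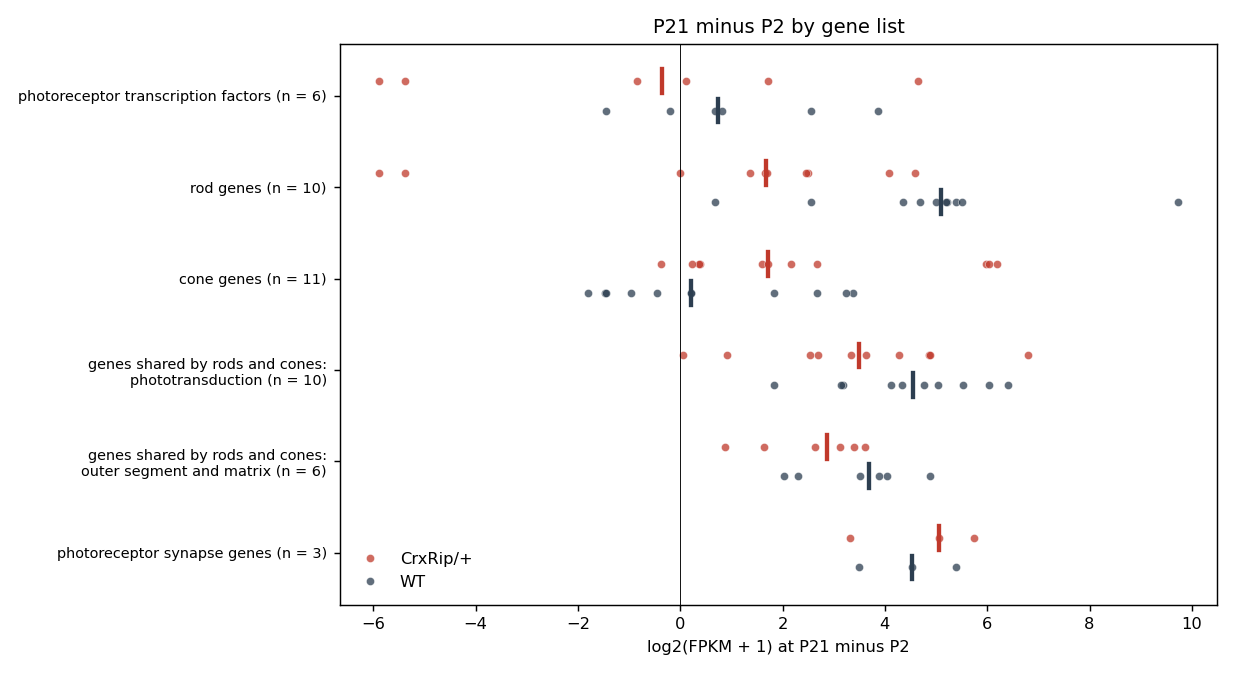
P21 minus P2 on the scale of log2(FPKM + 1) for the members of 6 gene lists that are in both tables, with a point per gene and a bar at the list's median, CrxRip/+ above WT in each pair. Rod genes lie lower in CrxRip/+ (median 1.67) than in WT (median 5.09), cone genes lie higher (1.71 and 0.20), and synapse genes lie close together (5.06 and 4.53).

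Phototransduction genes used by rods and cones alike mostly matured, from a low start. Of the 10 listed genes in both tables, 8 were at least 4-fold higher at P21 in CrxRip/+ and 9 in WT, with a median change of 3.48 against 4.56. At P2 limma called 9 of them lower than WT, although only 4 without WT replicate 2, and at P21 it called 9 lower. Guca1a, a calcium sensor that activates photoreceptor guanylate cyclase, had 116.1 and 137.9 FPKM at P21, against 0.2 and 0.1 FPKM at P2, in CrxRip/+ retina. In WT retina Guca1a had 403.7 and 362.2 FPKM at P21, against 3.2 and 3.9 FPKM at P2. Its change of 6.80 was the largest among the 198 genes in CrxRip/+, beside 6.40 in WT, and its difference of the differences was 0.39 ± 0.20 (SE, adjusted p = 0.0971). With a pseudocount of 0.1 that difference was 2.3 (limma, adjusted p = 0.000308), so for this gene it depends on the pseudocount. Aipl1, a chaperone of the phosphodiesterase, had 314.9 and 245.0 FPKM at P21, against 7.9 and 9.5 FPKM at P2, in CrxRip/+ retina. In WT retina Aipl1 had 323.4 and 282.2 FPKM at P21, against 13.9 and 14.0 FPKM at P2. Aipl1 was the member of this list that was not called different at P21 (-0.12, adjusted p = 0.435), the CrxRip/+ and WT samples overlapping.

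The other shared phototransduction genes fell behind WT by varying amounts. Rcvrn, recoverin, a calcium sensor of the photoreceptor light response, had 131.1 and 60.2 FPKM at P21, against 1.9 and 2.6 FPKM at P2, in CrxRip/+ retina. In WT retina Rcvrn had 531.0 and 520.9 FPKM at P21, against 5.8 and 8.2 FPKM at P2. The P21 CrxRip/+ replicates of Rcvrn disagreed, and its loss against WT between the ages, -1.26, was not called under several alternatives. With a pseudocount of 0.1 it was -0.97 (limma, adjusted p = 0.154). With CrxRip/+ and WT samples only it was -1.26 (limma, adjusted p = 0.072). Abca4, the transporter that clears retinoids from discs, changed by 4.28 in CrxRip/+ and 5.03 in WT, Rdh12, a retinol dehydrogenase, by 3.63 and 5.53, and Rgs9, which speeds transducin shut-off, by 2.54 and 3.14. Kcnv2, a modulatory potassium channel subunit of photoreceptors, changed by 3.34 in CrxRip/+ and 4.12 in WT. Pdc, phosducin, which binds transducin beta-gamma, was the abundant member that stalled, with 244.7 and 211.2 FPKM at P21 against 110.5 and 131.6 FPKM at P2 in CrxRip/+ retina. In WT retina Pdc had 1210.3 and 1380.1 FPKM at P21, against 129.4 and 155.5 FPKM at P2. Nxnl2, a thioredoxin-like relative of Nxnl1, stayed at 3.7 and 4.4 FPKM at P21, against 3.5 and 4.2 FPKM at P2, in CrxRip/+ retina.

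The promoters of 4 genes are printed, chosen among windows that hold the core named below, so its presence in them is not a result. Guca1a, Gnat2 and Cabp5, a bipolar cell gene taken up below, passed the 4-fold limit upward in CrxRip/+ retina, and Cnga1 stalled. Each run holds 250 bases before and 50 after the gene's start, 5′ to 3′ on the gene's strand, from RefSeq sequence of GRCm38.p6. Capitals mark TAATCC, the core recognised by CRX and OTX2, or its reverse complement GGATTA. The windows are chr17:47400557-47400856 on the minus strand for Guca1a, chr3:108092816-108093115 on the plus strand for Gnat2, chr7:13397905-13398204 on the plus strand for Cabp5 and chr5:72642703-72643002 on the minus strand for Cnga1.
Guca1a: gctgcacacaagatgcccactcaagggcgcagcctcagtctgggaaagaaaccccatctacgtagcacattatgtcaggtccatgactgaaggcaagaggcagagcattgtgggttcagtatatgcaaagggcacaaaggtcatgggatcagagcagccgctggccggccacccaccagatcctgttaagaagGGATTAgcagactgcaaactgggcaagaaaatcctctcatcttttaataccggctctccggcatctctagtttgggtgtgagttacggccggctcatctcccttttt
Gnat2: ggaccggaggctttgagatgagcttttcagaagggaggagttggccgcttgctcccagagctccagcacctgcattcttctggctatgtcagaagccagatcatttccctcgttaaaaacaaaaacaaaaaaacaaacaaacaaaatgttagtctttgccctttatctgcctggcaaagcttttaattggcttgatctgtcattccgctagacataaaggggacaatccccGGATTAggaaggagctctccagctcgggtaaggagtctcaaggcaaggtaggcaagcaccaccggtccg
Cabp5: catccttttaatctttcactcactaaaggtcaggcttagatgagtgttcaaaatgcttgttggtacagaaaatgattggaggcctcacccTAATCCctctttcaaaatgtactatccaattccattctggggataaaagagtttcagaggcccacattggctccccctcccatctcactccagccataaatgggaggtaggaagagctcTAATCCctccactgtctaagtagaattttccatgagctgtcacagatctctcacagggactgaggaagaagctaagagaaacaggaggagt
Cnga1: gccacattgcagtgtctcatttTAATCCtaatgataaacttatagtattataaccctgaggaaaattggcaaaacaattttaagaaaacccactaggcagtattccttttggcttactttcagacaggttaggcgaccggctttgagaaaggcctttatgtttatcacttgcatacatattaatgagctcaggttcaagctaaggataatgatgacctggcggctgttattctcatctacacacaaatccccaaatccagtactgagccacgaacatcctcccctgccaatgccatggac
The core was searched on both strands, and the Cabp5 window holds 2 copies while the other 3 windows hold 1 each. Of 27025 genes with a promoter in the RefSeq table, 2199 (8.14%) hold the core in this window, and among the shared genes 30 of 150 with an entry (20%) do. The share was 16 of 41 (39%) for genes at least 4-fold higher at P21 in CrxRip/+, 9 of 71 (12.7%) for genes within 2-fold, 5 of 30 (16.7%) for genes in between and 0 of 8 for genes at least 4-fold lower. Of the stalled or lagging genes, 2 of 10 (20%) hold it. A match describes letters in a window and not binding, and no test was made of these shares.

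Outer segment and matrix genes were intermediate. Of 6 listed genes in both tables, 4 were at least 4-fold higher at P21 in CrxRip/+ and all 6 in WT, with a median change of 2.88 against 3.70. Prph2, peripherin 2, which shapes the rim of outer segment discs, had 338.8 and 329.6 FPKM at P21, against 28.4 and 33.3 FPKM at P2, in CrxRip/+ retina. In WT retina Prph2 had 1599.7 and 1439.0 FPKM at P21, against 44.0 and 56.3 FPKM at P2. Rom1, the rim protein that pairs with Prph2, had 123.7 and 119.0 FPKM at P21, against 58.1 and 73.4 FPKM at P2, in CrxRip/+ retina. Rom1 therefore stalled where Prph2 did not, and its WT samples had 879.8 and 818.3 FPKM at P21, against 65.9 and 81.6 FPKM at P2. Rp1, a microtubule protein of the outer segment axoneme, lagged with 54.4 and 49.9 FPKM at P21, against 14.9 and 17.2 FPKM at P2, in CrxRip/+ retina, and 320.9 and 288.1 FPKM at P21, against 15.7 and 19.1 FPKM at P2, in WT retina. Its paralog Rp1l1 had a change of 3.61 in CrxRip/+ and 3.88 in WT, with a difference of the differences of -0.27 (adjusted p = 0.182), which was -0.51 (adjusted p = 0.0253) after median-of-ratios rescaling. Cdhr1, a photoreceptor cadherin at the base of the outer segment, reached 226.3 and 210.2 FPKM at P21 in CrxRip/+ retina, against 213.3 and 208.9 FPKM in WT retina. The Cdhr1 values of the genotypes overlapped at P21 (difference 0.05, adjusted p = 0.622). Impg2, a proteoglycan of the matrix around photoreceptors, changed by 2.63 in CrxRip/+ and 2.03 in WT.

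Photoreceptor synapse genes reached or approached the WT level. All 3 in both tables passed the 4-fold limit in both genotypes, with a median change of 5.06 in CrxRip/+ and 4.53 in WT, and 0 were called in the difference between ages by limma, where the adjusted p was 0.0519 for Slc17a7 and 0.0661 for Mpp4. With a pseudocount of 0.1, and with CrxRip/+ and WT samples only, limma called Slc17a7 and Mpp4 higher in that difference. Slc17a7, the vesicular glutamate transporter VGLUT1 of photoreceptor and bipolar terminals, had 356.5 and 329.6 FPKM at P21, against 5.4 and 5.5 FPKM at P2, in CrxRip/+ retina. In WT retina Slc17a7 had 366.1 and 363.0 FPKM at P21, against 7.6 and 7.9 FPKM at P2. The P21 difference was -0.09 (adjusted p = 0.488), both CrxRip/+ samples lying just below both WT samples. Mpp4, a scaffold of the photoreceptor terminal, had 139.2 and 112.1 FPKM at P21, against 2.6 and 3.0 FPKM at P2, in CrxRip/+ retina, and 173.6 and 160.5 FPKM at P21, against 6.1 and 6.4 FPKM at P2, in WT retina. Lrit2, a leucine-rich repeat membrane protein, had 58.0 and 50.7 FPKM at P21, against 4.2 and 4.9 FPKM at P2, in CrxRip/+ retina. After each sample was rescaled by the median of its ratios, limma called all 3 lower than WT at P21, against 1 without it.

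Few genes of other retinal cell types were in both tables, and their part in the photoreceptor results was not tested. Cabp5, a calcium-binding protein of rod and cone bipolar cells, had 56.9 and 47.1 FPKM at P21, against 0.4 and 0.4 FPKM at P2, in CrxRip/+ retina. In WT retina Cabp5 had 32.5 and 45.6 FPKM at P21, against 3.6 and 3.1 FPKM at P2. The P21 samples of CrxRip/+ lay above those of WT, although that difference (0.42, adjusted p = 0.0499) was lost under several alternatives, whereas the difference of the differences was 2.05. Lhx4, a homeodomain factor of cone bipolar cells and early cones, changed by -0.23 in CrxRip/+. No member of the lists for horizontal, amacrine and ganglion cells, Müller glia, microglia, vessels, lens or p53 targets was among the shared genes.

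Of the 14 listed glial reaction genes 2 were in both tables, and of the 10 listed immediate early genes 2 were. Limma called all 4 higher in the difference between ages, beside 37.4% of all shared genes. So few selected genes do not stand for either list. Gfap, the intermediate filament of reactive glia, had 15.8 and 21.3 FPKM at P21, against 6.7 and 12.3 FPKM at P2, in CrxRip/+ retina. In WT retina Gfap had 4.5 and 3.7 FPKM at P21, against 10.1 and 4.9 FPKM at P2. The P21 samples did not overlap between genotypes (1.93, adjusted p = 1.93e-05), while the difference of the differences, 1.61 ± 0.58 (SE, adjusted p = 0.029), was lost under 5 of 14 alternatives. Socs3, a feedback inhibitor of cytokine signalling, changed by -0.15 in CrxRip/+ and -1.26 in WT. Egr1, an immediate early transcription factor, had 64.0 and 54.5 FPKM at P21, against 0.9 and 0.9 FPKM at P2, in CrxRip/+ retina. In WT retina Egr1 had 3.8 and 3.8 FPKM at P21, against 3.4 and 3.9 FPKM at P2. Egr1 had the largest called gain on WT of the 198 genes, 4.93 ± 0.35 (SE, adjusted p = 9e-08). Jun, a partner in the AP-1 factor, changed by -0.05 in CrxRip/+ and -1.29 in WT.

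Further genes gained on WT without belonging to a photoreceptor list. Tafa3, which encodes a small secreted protein of the nervous system, had 36.7 and 57.2 FPKM at P21, against 0.1 and 0.1 FPKM at P2, in CrxRip/+ retina. In WT retina Tafa3 had 24.6 and 26.3 FPKM at P21, against 5.2 and 5.7 FPKM at P2. It thus crossed WT like Gnat2, with a difference of the differences of 3.38 ± 0.23 (SE, adjusted p = 6.25e-08). Riiad1, a gene named for a regulatory-subunit domain of protein kinase A, had 14.6 and 7.3 FPKM at P21, against 1.6 and 1.2 FPKM at P2, in CrxRip/+ retina, and 1.1 and 0.7 FPKM at P21, against 2.4 and 2.8 FPKM at P2, in WT retina. Cerkl, a ceramide kinase-like gene linked to retinal degeneration in humans, had 56.7 and 43.0 FPKM at P21, against 5.5 and 4.2 FPKM at P2, in CrxRip/+ retina, and 10.9 and 10.2 FPKM at P21, against 6.6 and 3.9 FPKM at P2, in WT retina. The 9 genes past 4-fold in CrxRip/+ and under 2-fold in WT were Parvb, Ttr, Cngb3, Doc2b, Klhl33, Riiad1, Gnb3, Cerkl and Egr1. Of these, Cngb3 and Gnb3 are on the cone list. Such rises were not particular to CrxRip/+. In CrxRip/Rip, Crx-/- and Nrl-/- the change was 4.93, 4.04 and 4.43 for Egr1 and 3.01, 3.39 and 3.07 for Cerkl. It was 2.1, 2.24 and 2.67 for Doc2b and 2.69, 1.54 and 2.3 for Gnb3. For Parvb it was 1.05, 1.0 and 3.06, and for Riiad1 1.47, 0.08 and 1.99. Limma called all 9 higher than WT at P21 and in the difference between ages, the latter call being lost for Ttr under 5 of 14 alternatives. A gain on WT was set by how the 9 were picked, so their calls in that difference are no separate support. Ttr, transthyretin, an abundant transcript of pigment epithelium, had 16.7 and 20.2 FPKM at P21, against 2.5 and 4.6 FPKM at P2, in CrxRip/+ retina, and 3.2 and 7.8 FPKM at P21, against 2.6 and 3.1 FPKM at P2, in WT retina. Tyrp1, a melanin enzyme of the same tissue and the only other of its 15 listed genes in both tables, had 1.5 and 1.5 FPKM at P21 in CrxRip/+, against 0.6 and 0.8 FPKM in WT. The part of adhering pigment epithelium in the results was not tested.

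**Figure D4:**
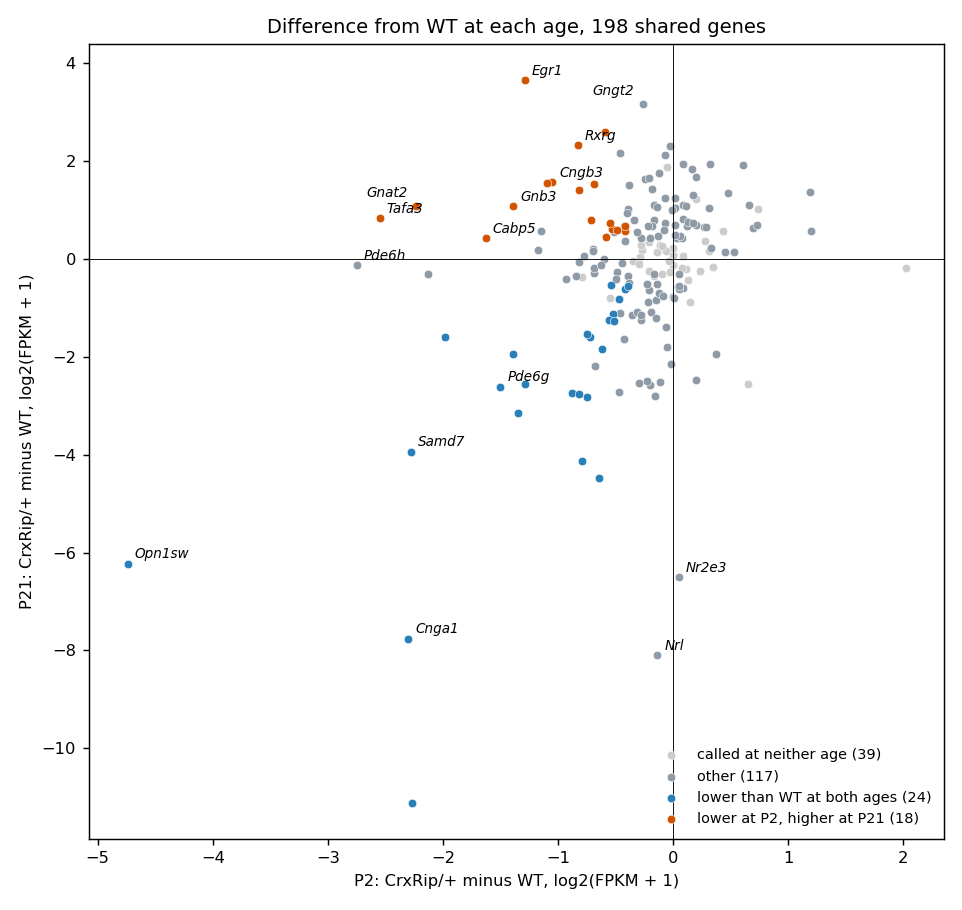
CrxRip/+ minus WT on the scale of log2(FPKM + 1) by limma, at P21 (vertical axis) against P2 (horizontal axis), for the 198 shared genes. The 24 genes called lower at both ages lie at lower left, the 18 called lower at P2 and higher at P21 lie at upper left, 39 were called at neither age, and the other 117 were called at 1 age or higher at both.

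Set against WT at each age, 61 shared genes were lower in CrxRip/+ at P2, and at P21 24 of them were lower again, 18 were higher and 19 were not called. Of all 198 shared genes, 72 (36.4%) were higher and 64 (32.3%) lower at P21. Being higher at P21 was thus not more frequent among these 61 genes than among the shared genes as a whole. Of the 9 genes higher at P2, 5 were higher at P21, 0 were lower and 4 were not called. Another 89 genes were called at P21 alone, 49 of them higher and 40 lower. The 18 genes that crossed from lower to higher were Gnat2, Pde6c, Gnb3, Cngb3, Rxrg, Tafa3, Cabp5, Egr1, Riiad1, Cltb, Parvb, Podxl, Sptb, Mylk, Ampd2, Nr6a1, Abcb4 and Xk. In this fit 0 crossed the other way, and with a replicate block 1 did. The count of 18 fell when any single CrxRip/+ or WT sample at P2 was left out. It was 15 with CrxRip/+ and WT samples only at both ages. A P2 fit of those samples only, with a replicate block whose numbers were crossed between genotypes, gave 4. That alternative was chosen after seeing the data. It changed the samples and the block together, so their parts in the fall to 4 cannot be told apart. Among the 57 genes past 4-fold upward in CrxRip/+, 30 had been below WT at P2, and at P21 24 were above WT and 22 below. Over all 198 shared genes the shares were 30.8% below WT at P2, and 36.4% above and 32.3% below at P21.

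Of the 8 genes at least 4-fold lower at P21 in CrxRip/+, 4 also passed the limit in WT, and the others were Nrl, Nr2e3, Ftl1 and Odc1. Insm2, a zinc-finger relative of the neuroendocrine factor Insm1, had 0.1 and 0.1 FPKM at P21, against 6.5 and 6.7 FPKM at P2, in CrxRip/+ retina, and 0.1 and 0.0 FPKM at P21, against 5.7 and 7.6 FPKM at P2, in WT retina. Arid3c, an AT-rich DNA-binding factor, had 0.1 and 0.0 FPKM at P21, against 5.9 and 6.1 FPKM at P2, in CrxRip/+ retina, and 0.2 and 0.3 FPKM at P21, against 4.5 and 5.5 FPKM at P2, in WT retina. Neither was called in the limma test of the difference of the differences (adjusted p = 0.814 for Insm2 and 0.1 for Arid3c). Limma did call Arid3c lower in it with a pseudocount of 0.1 (-1.56, adjusted p = 0.00506). The same held with CrxRip/+ and WT samples only (-0.48, adjusted p = 0.0352). Dusp16, a phosphatase of stress-activated kinases, had 6.4 and 6.4 FPKM at P21, against 39.3 and 36.4 FPKM at P2, in CrxRip/+ retina. In WT retina Dusp16 had 4.5 and 4.6 FPKM at P21, against 36.7 and 37.2 FPKM at P2. Odc1, the first enzyme of polyamine synthesis, had 7.3 and 7.8 FPKM at P21, against 41.7 and 43.2 FPKM at P2, in CrxRip/+ retina, and 12.0 and 11.7 FPKM at P21, against 41.7 and 37.9 FPKM at P2, in WT retina. Rps19, a ribosomal protein gene, had 6.5 and 6.4 FPKM at P21, against 65.9 and 40.3 FPKM at P2, in CrxRip/+ retina. Ftl1, ferritin light chain, had 20.7 and 0.7 FPKM at P21, against 169.8 and 163.4 FPKM at P2, in CrxRip/+ retina. Rps19 and Ftl1 have near-identical copies elsewhere in the genome that can share reads, and the P21 replicates of Ftl1 disagreed, so their values are uncertain.

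Btg2, an antiproliferative gene of differentiating precursors, gained on WT between the ages, with 71.7 and 55.7 FPKM at P21 against 89.9 and 86.9 FPKM at P2 in CrxRip/+ retina. In WT retina Btg2 had 26.7 and 23.4 FPKM at P21, against 74.5 and 82.9 FPKM at P2. The difference of the differences for Btg2 was 1.14 and was called. Tnc, tenascin C, an extracellular matrix glycoprotein, had 8.8 and 11.5 FPKM at P21, against 5.9 and 6.2 FPKM at P2, in CrxRip/+ retina, and 2.0 and 2.6 FPKM at P21, against 6.1 and 7.3 FPKM at P2, in WT retina. Elovl2, an elongase of very long-chain polyunsaturated fatty acids, had 71.0 and 64.3 FPKM at P21, against 32.5 and 35.8 FPKM at P2, in CrxRip/+ retina, and 18.5 and 15.6 FPKM at P21, against 29.1 and 35.4 FPKM at P2, in WT retina. Cltb, a clathrin light chain, had 98.7 and 110.1 FPKM at P21, against 49.8 and 52.3 FPKM at P2, in CrxRip/+ retina, and 36.2 and 35.0 FPKM at P21, against 81.5 and 84.1 FPKM at P2, in WT retina. Within P21 every CrxRip/+ sample of these 3 genes lay above every WT sample, while their changes between ages, all under 4-fold, were too small to be read across the tables. Limma called all 3 higher in the difference between ages, at 1.88 for Tnc, 1.85 for Elovl2 and 2.21 for Cltb. These 3 genes were chosen after their values were seen, so their calls and their separation at P21 are no separate support.

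The stalled genes outside the photoreceptor lists were not called different from WT at P2 in the fit used here and were lower at P21. For Krt18, both CrxRip/+ samples nevertheless lay below both WT samples at P2. With a replicate block limma called Krt18 lower at P2 (-0.47, adjusted p = 0.0192). Spata1, a gene known from spermatogenesis, had 2.8 and 2.5 FPKM at P21, against 3.0 and 3.6 FPKM at P2, in CrxRip/+ retina, and 19.7 and 18.7 FPKM at P21, against 2.5 and 3.0 FPKM at P2, in WT retina. Krt18, an epithelial keratin, had 1.3 and 2.4 FPKM at P21, against 1.4 and 2.3 FPKM at P2, in CrxRip/+ retina, and 16.7 and 18.2 FPKM at P21, against 2.7 and 3.1 FPKM at P2, in WT retina. The gene 1810009A15Rik had 73.7 and 65.8 FPKM at P21, against 41.2 and 45.2 FPKM at P2, in CrxRip/+ retina, and 247.3 and 243.0 FPKM at P21, against 43.2 and 46.6 FPKM at P2, in WT retina. Each was called lower in the difference between ages, at -2.67, -2.25 and -1.75. That direction was set by their choice as stalled genes, so these calls are no separate support.

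The other Crx genotypes give a setting for the rod factors. Nrl had 0.1 and 0.2 FPKM at P21, against 36.5 and 43.2 FPKM at P2, in CrxRip/Rip retina, and 87.2 and 82.0 FPKM at P21, against 73.0 and 81.6 FPKM at P2, in Crx-/- retina. Nr2e3 had 0.0 and 0.0 FPKM at P21, against 61.4 and 70.2 FPKM at P2, in CrxRip/Rip retina, and 118.0 and 110.0 FPKM at P21, against 112.4 and 133.2 FPKM at P2, in Crx-/- retina. Both CrxRip genotypes were thus near 0 for these genes at P21, whereas Crx-/- samples stayed near their P2 values, and these differences between mutants were not tested here.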

How the data were processed

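RNA of whole mouse retina was sequenced from directional TruSeq libraries in 20 samples, 2 in each of 10 groups, grouped by sample title. Per the file headers, sample values are FPKM computed by the authors, rounded to 1 decimal, beside the authors' adjusted p-value and log2 fold change for pairs of genotypes, which were used here only to check how the tables were selected. All 566 genes at P2 and all 1497 at P21 had at least 1 comparison with a log2 fold reaching 1, an adjusted p under 0.05 and a group averaging 2 FPKM or more. The submitters' processing notes name DESeq, with no version. Aligner, counter, build and annotation were not given in the sources used here. Because FPKM holds no counts, depth is unknown and no counting interval was computed.

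The 198 genes were joined by transcript identifier, and all 198 matched a RefSeq transcript of GRCm38.p6, with 9 symbols replaced by current ones. Fits used log2(FPKM + 1), limma 3.58.1 in R 4.3.3, a term per group, a variance trend, empirical Bayes moderation, two-sided p and Benjamini-Hochberg adjustment over all genes fitted, with calls at an adjusted p under 0.05. The P2 and P21 fits used 10 samples each with 5 residual degrees of freedom, and the difference between ages used 20 samples and the 198 genes with 10. The smallest two-sided p that an exact permutation test can reach with 2 samples a side is 0.33, and calls therefore lean on limma's pooling of the spread over genes. The fits were tested on simulated data.

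Genes were named by a rule: 10 largest changes each way, stalled and retained genes, 5 largest called differences between ages each way, photoreceptor transcription factors, and up to 4 largest and 2 smallest changes per list, each averaging 5 FPKM or more in some group apart from the factors. Of its genes 54 were kept, of which a subset is described, and some genes are not reported here. Outside it, 20 genes (Sag, Pde6b, Nxnl1, Rdh12, Cngb3, Cnga3, Ccdc136, Elovl2, Tnc, Cltb, Cerkl, Nrn1l, Rtn4rl2, Elfn2, Doc2b, Slc24a4, Hk2, Mt1, Mt2 and Klhl18) were chosen after their values were seen, and others are named only as members of a count. The members and the 20 gene lists were chosen with earlier results of these data known. No 2 samples held identical values. Alternatives were the pseudocount, the fold limit, filters on low values, the scale between tables, rescaling, the samples fitted, the variance trend, a replicate block and leaving out each sample.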

Additional observations from a re-analysis of the deposited data

Results flagged for a closer look

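For the genes below, the CrxRip/+ minus WT difference at P21 differed from that at P2 by limma at an adjusted p under 0.05, on the log2(FPKM + 1) scale. A positive value means that CrxRip/+ gained on WT between the ages, and no explanation was tested for any of them.

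Among transcription factors the value was -7.96 for Nrl, -6.56 for Nr2e3, -1.66 for Samd7, 0.78 for Ankrd33 and 3.15 for Rxrg. Rod genes lost ground, with -5.45 for Cnga1, -3.83 for Reep6, -3.35 for Pde6b, -2.23 for Sag, -1.87 for Nxnl1, -1.11 for Pde6g and -0.65 for Gngt1. Cone genes gained, with 3.41 for Gngt2, 3.30 for Gnat2, 2.64 for Pde6c, 2.63 for Pde6h, 2.61 for Cngb3, 2.47 for Gnb3, 1.71 for Otop3 and 1.35 for Ccdc136, except Opn1sw at -1.49 and Cnga3 at -0.57.

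Genes shared by rods and cones were mostly lower, with -2.63 for Rom1, -2.42 for Rp1, -2.27 for Pdc, -1.94 for Rdh12, -1.79 for Nxnl2, -1.50 for Prph2, -1.26 for Rcvrn and -0.75 for Abca4, whereas Cdhr1 was 0.81 and Aipl1 0.51. Of the remaining genes, those that gained were Egr1 at 4.93, Tafa3 at 3.38, Riiad1 at 3.18, Cltb at 2.21, Cerkl at 2.20, Cabp5 at 2.05, Rtn4rl2 and Tnc at 1.88, Elfn2 at 1.87, Elovl2 and Nrn1l at 1.85, Gfap at 1.61, Ttr at 1.47, Doc2b at 1.40, Slc24a4 at 1.33, Jun at 1.22, Btg2 at 1.14 and Dusp16 at 0.38. Those that lost ground were Spata1 at -2.67, Krt18 at -2.25, 1810009A15Rik at -1.75, Hk2 at -1.06, Klhl18 at -0.96, Odc1 at -0.68 and Lrp4 at -0.62.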

How the results depend on the processing

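Scale between the tables, the fold limit and single P2 samples set the counts, and the cause of each shift below was not tested. Genes at least 4-fold higher at P21 in CrxRip/+ (57) became 31 with an 8-fold limit, 31 with P21 values 2 times lower and 33 centred on the median change. Genes at least 4-fold lower (8) became 3 at 8-fold, 20 at 2-fold, 5 with P21 values 2 times higher, 17 with them 2 times lower and 16 centred. Genes within 2-fold (92) became 57 with the 2-fold limit and 54 with a filter at a mean of 5 FPKM. Stalled genes (7) became 4 at 8-fold, and lagging genes (6) became 12 at 8-fold and 10 with P21 values 2 times higher. The retained count (1) became 3 with a pseudocount of 0.1, 14 at 2-fold, 6 with P21 values 2 times lower, 7 centred and 0 with only genes of agreeing replicates, an alternative chosen after seeing the data. Leaving out each sample gave 54 to 58, 8 to 10, 87 to 93, 5 to 9, 5 to 7 and 0 to 1 genes for these counts in the order given.

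Of genes higher than WT at P2 (21), 12 were called in a fit of CrxRip/+ and WT samples only and 12 to 18 leaving out each sample, the 12 being without WT replicate 1. Genes lower at P2 (72) became 39 to 60 leaving out each sample. At P21 the calls were 494 to 573 higher and 452 to 507 lower, and in the difference between ages 65 to 73 higher and 44 to 50 lower. Such fits leave a group with 1 sample, which is assumed to vary like the others. Replicate numbers shared between genotypes had deviations correlated at -0.24 at P2 and 0.12 at P21 and were not taken to pair samples. With a replicate block the calls were 24 higher and 77 lower at P2, 586 and 526 at P21, and 75 and 50 in the difference. A block with the numbers crossed at P2, fitted to CrxRip/+ and WT samples only and chosen after seeing the data, left 1 higher and 13 lower. Without a block, the P2 fit of those samples gave 12 higher and 57 lower.

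After each sample was rescaled by its median ratio there were 509 higher and 599 lower at P21 and 61 higher and 59 lower in the difference, against 591 and 524 and against 74 and 49. Pde6h at P21 changed sign to 0.86 without CrxRip/+ replicate 1 and was -1.11 without replicate 2. Of the 57 named genes called in the difference between ages, 49 were called under every alternative, and Aipl1, Dusp16, Gfap, Gngt1, Lrp4, Odc1, Rcvrn and Ttr were lost under at least 1, with adjusted p up to 0.342. At P2 the call of 27 of the 74 named genes changed under some alternative, at P21 that of 17, and in the difference between ages that of 20, gained calls included. Depth is unknown, and values under 1 FPKM are limited by rounding.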

Other observations

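The 5 genes of this paragraph were chosen after their values were seen, because CrxRip/+ retina ended above WT, and stand for no list. Nrn1l, a neuritin-like membrane protein, had 28.5 and 22.4 FPKM at P21, against 1.2 and 1.3 FPKM at P2, in CrxRip/+ retina, and 7.6 and 7.2 FPKM at P21, against 1.5 and 1.7 FPKM at P2, in WT retina. Rtn4rl2, a receptor related to the Nogo receptor, had 25.6 and 26.7 FPKM at P21, against 1.8 and 1.6 FPKM at P2, in CrxRip/+ retina, and 8.7 and 8.5 FPKM at P21, against 2.5 and 2.5 FPKM at P2, in WT retina. Elfn2, a leucine-rich repeat membrane protein, had 26.6 and 31.3 FPKM at P21, against 2.2 and 1.8 FPKM at P2, in CrxRip/+ retina, and 8.1 and 9.3 FPKM at P21, against 2.3 and 2.8 FPKM at P2, in WT retina. These 3 genes were thus close between the genotypes at P2 and apart at P21, with every CrxRip/+ sample above every WT sample. Doc2b, a calcium sensor of vesicle release, had 55.3 and 58.7 FPKM at P21, against 12.2 and 11.3 FPKM at P2, in CrxRip/+ retina, and 29.2 and 26.5 FPKM at P21, against 14.5 and 17.0 FPKM at P2, in WT retina. Slc24a4, a potassium-dependent sodium-calcium exchanger, had 31.9 and 30.8 FPKM at P21, against 0.4 and 0.4 FPKM at P2, in CrxRip/+ retina, and 16.2 and 15.7 FPKM at P21, against 0.9 and 0.8 FPKM at P2, in WT retina.

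Another 4 genes were likewise chosen after their values were seen. Mt1, a metal-binding protein, had 30.4 and 59.3 FPKM at P21, against 5.0 and 4.9 FPKM at P2, in CrxRip/+ retina, and 26.9 and 27.0 FPKM at P21, against 3.8 and 3.9 FPKM at P2, in WT retina. Mt2, its neighbour and paralog, had 11.2 and 30.4 FPKM at P21, against 0.7 and 1.1 FPKM at P2, in CrxRip/+ retina, and 8.5 and 8.0 FPKM at P21, against 0.7 and 0.8 FPKM at P2, in WT retina. Replicate 2 of CrxRip/+ was the higher one at P21 for both metallothioneins, and their paralogous sequences can share reads. Hk2, the hexokinase of photoreceptors, had 21.6 and 28.2 FPKM at P21, against 4.1 and 3.6 FPKM at P2, in CrxRip/+ retina, and 47.9 and 71.7 FPKM at P21, against 4.9 and 3.9 FPKM at P2, in WT retina. Klhl18, an adaptor of a ubiquitin ligase that acts on Unc119 in rods, had 29.4 and 30.8 FPKM at P21, against 9.0 and 9.7 FPKM at P2, in CrxRip/+ retina, and 71.4 and 74.1 FPKM at P21, against 10.9 and 12.3 FPKM at P2, in WT retina.

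Replicates differed by over 1 on the log2(FPKM + 1) scale in at least 1 of the 4 groups for 16 genes. In CrxRip/+ at P21, besides Rcvrn, Pde6h, Ftl1, Eno1b and Mt2, they included Parvb with 27.0 and 12.8 FPKM, Slc15a2 with 16.3 and 6.1 FPKM, Optc with 1.3 and 9.3 FPKM, Acp1 with 0.6 and 4.8 FPKM and Myo7a with 4.2 and 0.3 FPKM.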
